A study of Mus musculus with 8 samples.

Results

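The miR-26 and miR-101 families were followed in mouse liver through 4 mature microRNAs (miRNAs): mmu-miR-26a-5p, mmu-miR-26b-5p, mmu-miR-101a-3p and mmu-miR-101b-3p. They were taken by name, and all 4 were present among the 443 mature sequences of the count table. All 4 also passed the filter on low counts, as 170 of the 443 sequences did. The samples were livers of male C57BL/6J mice, an inbred strain, aged 10 to 11 weeks. Of the 8 samples, 4 came from animals kept on a normal diet (chow) and 4 from animals given a high-fructose diet (HFrD), each for 2 weeks before anaesthesia with chloral hydrate. The titles of the 4 HFrD samples call them an HFrD-induced model of non-alcoholic fatty liver disease. HFrD took 10% of its calories from fat, 70% from carbohydrate and 20% from protein, and for the chow the sources used here give no such shares. Libraries held between 1120035 and 1638036 counts. The labels number the replicates without saying that each is a separate animal. If they are not, the spread behind each p-value is technical.

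A miRNA guides Argonaute proteins to messenger RNAs, mainly by pairing of its seed, bases 2 to 8 from the 5′ end, with the 3′ untranslated region (UTR) of the target. Both families are known to repress Ezh2, the catalytic subunit of a polycomb complex that methylates histone H3 and silences genes. Most of that evidence comes from human tumour cells and mouse muscle cells, and in liver both families are described as suppressors of hepatocellular carcinoma. In mouse liver miR-26a is also known as a regulator of insulin sensitivity and of glucose and lipid metabolism. The comparison of diets asks whether the families differ after HFrD. Messenger RNA was not analysed here, so nothing below measures Ezh2.

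The mature sequences, as deposited and identical to RefSeq (GRCm38.p6), show which paralogs share a seed. The capitals mark bases 2 to 8.
mmu-miR-26a-5p: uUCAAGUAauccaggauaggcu
mmu-miR-26b-5p: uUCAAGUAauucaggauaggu
mmu-miR-101a-3p: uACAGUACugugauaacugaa
mmu-miR-101b-3p: gUACAGUAcugugauagcu
The miR-26 paralogs had the same seed and differed by C11U and C21U (the base of miR-26a-5p, its position from the 5′ end of miR-26a-5p, the base of miR-26b-5p) and by the length, 22 against 21 bases. The miR-101 entries did not share a seed as listed, because miR-101b-3p began 1 base earlier. Aligned with that shift, they differed over 18 bases by 1 substitution, A16G, counted from the 5′ end of miR-101a-3p. The miR-101 total used here is therefore a total over paralogs and not over 1 listed seed. No other entry of the table held the letters of the miR-26 seed. The letters of the miR-101a-3p seed stood in 1 further entry, miR-101c, from its first base.
mmu-miR-101c: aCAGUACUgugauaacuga
All 19 bases of miR-101c lay within miR-101a-3p, from its base 2, so counts of miR-101c cannot be told apart from shortened miR-101a-3p.

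The precursors lay at separate places of GRCm38, so each member but miR-26a-5p came from 1 locus. Mir26a-1 lay at chr9:119031796-119031885 on the plus strand in an intron of Ctdspl, and Mir26a-2 at chr10:126995530-126995613 on the plus strand within Ctdsp2, where annotated transcripts place it in an intron or an exon. The mature miR-26a-5p of both loci is the same sequence and was entered with the same counts, which therefore do not say how much each locus gave. Mir26b lay at chr1:74394310-74394394 on the plus strand in an intron of Ctdsp1. The host genes of the miR-26 precursors are paralogs themselves and encode small phosphatases of the RNA polymerase II tail. Mir101a lay at chr4:101346945-101347027 on the minus strand, in an exon of the long non-coding RNA gene E130102H24Rik. Mir101b lay at chr19:29135279-29135375 on the plus strand in an intron of Rcl1, a gene of ribosomal RNA processing.

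The known target Ezh2 held matches to both families. Its annotated 3′ UTR of 402 bases, on the minus strand of chromosome 6, was searched in the sense direction for the complement of bases 2 to 8. The letters were TACTTGA for both miR-26 paralogs, GTACTGT for miR-101a-3p and TACTGTA for miR-101b-3p. The matches are shown because they are the link between the families, with capitals for the matched letters.
miR-26a-5p and miR-26b-5p, chr6:47530275-47530304: tgaataaagaaTACTTGAacttgttgttga
miR-101a-3p, chr6:47530464-47530493: aggaaccttgaGTACTGTgggcaatttaga
miR-101a-3p, chr6:47530409-47530438: gaatttgcaaaGTACTGTaacagtaattta
The miR-26 match began 248 bases after the stop codon and was followed by an A, opposite the first base of the miRNA. The miR-101a-3p matches began at bases 59 and 114, the first followed by G and the second by A. The letters for miR-101b-3p overlapped the second of these, at bases 115 to 121, and were found at no other place of the 402 bases. Over the first 402 bases of 15295 mouse 3′ UTRs of at least that length, 1 per gene, TACTTGA was found in 2.85%, GTACTGT in 2.71% and TACTGTA in 3.33%. A match is a description of letters, not evidence of pairing in these livers.

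**Figure D1:**
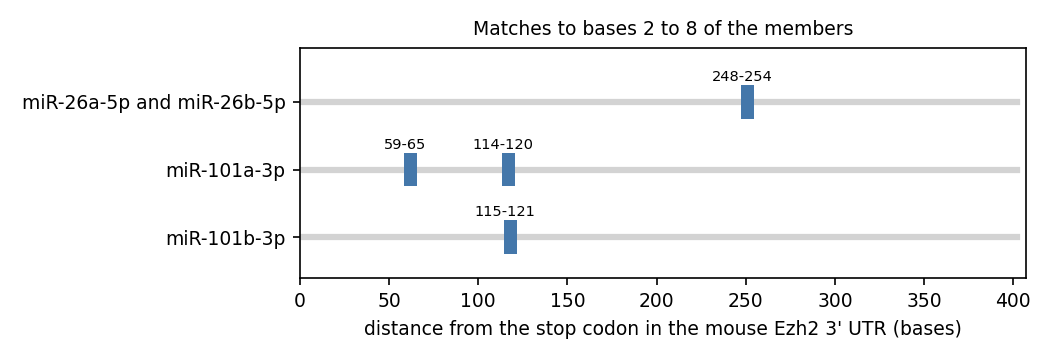
Matches to bases 2 to 8 of the members along the annotated 3′ UTR of mouse Ezh2 (x axis: distance from the stop codon in bases; blocks: matches). The miR-26 match lies at 248 to 254, and the miR-101a-3p matches lie at 59 to 65 and 114 to 120, the latter overlapping that of miR-101b-3p at 115 to 121.

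miR-26a-5p was the dominant member. It made up 1.06% of all counts and ranked between 9 and 11 in abundance in every library. miR-101a-3p held 0.0993% of all counts, miR-26b-5p 0.0534% and miR-101b-3p 0.0471%. miR-26a-5p was above miR-101a-3p, and miR-101a-3p above miR-26b-5p, in 8 of 8 libraries. The order of miR-26b-5p over miR-101b-3p held in 7 of 8, the exception being HFrD replicate 3 with 757 against 900 counts. Ligation and amplification can favour some sequences, so levels of different miRNAs compare only roughly.

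No member differed between the diets at an adjusted p under 0.05. The quasi-likelihood test of edgeR with trimmed mean of M-values (TMM) factors called 0 of the 4, and 0 had an unadjusted p under 0.05. Over the whole table it called 10 of 170 sequences (5.88%), 4 higher and 6 lower in HFrD, and 40 (23.5%) had an unadjusted p under 0.05. With library totals in place of TMM factors it called 23 of 170 (13.5%), 17 higher and 6 lower, and again 0 of the 4 members. DESeq2 called 11 of 170 (6.47%) and 0 of the 4. Levels are given as CPM, counts scaled to a common library size with TMM factors unless library totals are named. Log2 fold changes are positive where HFrD was higher, and p was adjusted over the 170 sequences.

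miR-26a-5p was measured at 10582, 10397, 11577 and 9160 CPM in chow replicates 1 to 4. In HFrD replicates 1 to 4 it was at 11349, 10588, 10117 and 10645 CPM. The groups overlapped, and chow held both the highest and the lowest library. Means were 10429 ± 992 CPM in chow and 10675 ± 508 CPM in HFrD (SD, n = 4 each), a log2 fold change of 0.034 (SE 0.088, 95% interval −0.15 to 0.22, adjusted p = 0.801, edgeR). The lowest library, chow replicate 4, decided the sign, since without it the value was −0.048 (adjusted p = 0.812, edgeR).

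miR-26b-5p, the rarer paralog, stood at 527, 642, 543 and 571 CPM in chow replicates 1 to 4. The HFrD replicates had 509.8, 511, 476 and 518 CPM. All 4 HFrD libraries were below all 4 chow libraries, a separation seen in 1 of the 4 members and in 24 of the 170 sequences (14.1%). Means were 571 ± 50.7 and 504 ± 19.1 CPM (SD, n = 4 each), a log2 fold change of −0.18 (SE 0.096, 95% interval −0.38 to 0.021, adjusted p = 0.281, edgeR). Over library totals the groups overlapped, with 538, 618, 522 and 511 CPM in chow and 574, 533, 462 and 539 CPM in HFrD. On that scale the edgeR log2 fold change shrank to −0.054 (SE 0.11, adjusted p = 0.794). The mean TMM factor was 0.959 for chow and 1.05 for HFrD, and the separation of miR-26b-5p moved with the scaling.

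miR-101a-3p was at 1022, 899.9, 949 and 829 CPM in chow. HFrD replicates 1 to 4 had 776, 1160.4, 1243 and 1021 CPM. HFrD held the lowest library as well as the highest pair, and the groups overlapped. Means were 925 ± 81 and 1050.0 ± 204 CPM (SD, n = 4 each), with a log2 fold change of 0.18 (SE 0.12, 95% interval −0.080 to 0.44, adjusted p = 0.414, edgeR). HFrD replicate 1, the lowest, carried the highest TMM factor of the 8 libraries, 1.13. Without that library edgeR gave 0.32 on the log2 scale (SE 0.11, adjusted p = 0.0768), without HFrD replicate 3 it gave 0.085 (adjusted p = 0.706), and without chow replicate 4 it gave 0.11 (adjusted p = 0.670).

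miR-101b-3p was at 377, 465, 445 and 508 CPM in chow. HFrD replicates 1 to 4 were at 420.1, 469, 566 and 503 CPM. The groups overlapped, and only HFrD replicate 3 stood above every chow library. Means were 449 ± 54.8 and 489.5 ± 61.1 CPM (SD, n = 4 each), a log2 fold change of 0.13 (SE 0.12, 95% interval −0.12 to 0.37, adjusted p = 0.499, edgeR). Single libraries moved it: leaving out chow replicate 1 gave 0.047, leaving out HFrD replicate 3 gave 0.044, and HFrD replicate 1 left out gave 0.22. Over library totals miR-101b-3p separated, with 384, 448, 427 and 454 CPM for chow against 473, 489, 549 and 523 CPM for HFrD. There 27 of the 170 sequences (15.9%) separated, and miR-101b-3p was the 1 member among the 4 that did. edgeR put its log2 fold change at 0.25 (SE 0.11, adjusted p = 0.171, unadjusted p = 0.0348). miR-101a-3p was at 0.29 on that scale (SE 0.12, adjusted p = 0.154, unadjusted p = 0.0290, edgeR), with overlapping groups. On that scale 38 of the 170 sequences (22.4%) had an unadjusted p under 0.05, and the median of all of them was 0.13.

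**Figure D2:**
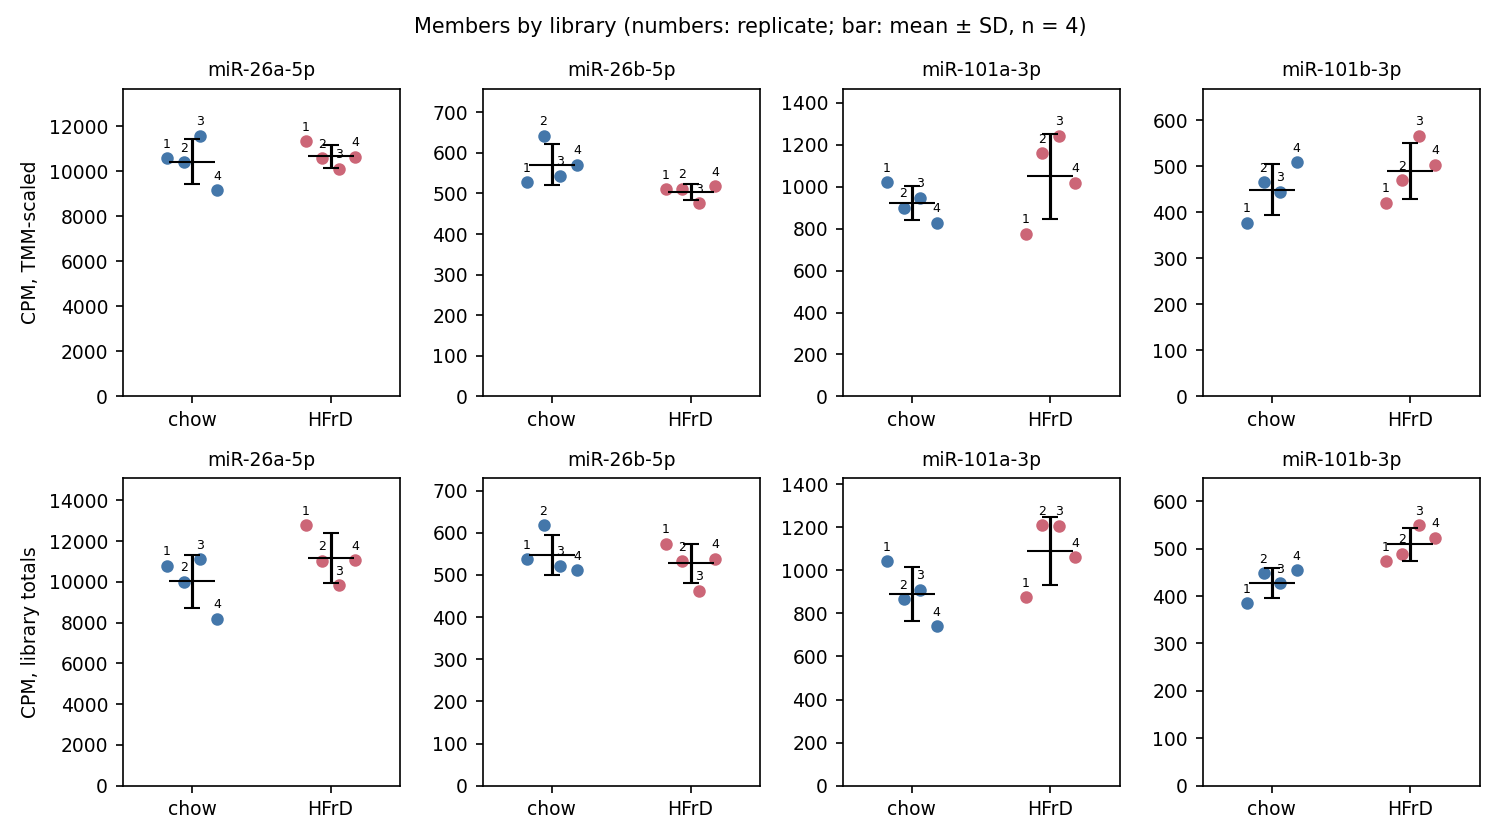
Level of each member in each library (y axis: CPM, upper row over TMM-scaled library sizes, lower row over library totals; points: libraries with the replicate number; bars: mean ± SD, n = 4). The diets separate for miR-26b-5p in the upper row, where HFrD ends at 518 and chow starts at 527, and for miR-101b-3p in the lower row, where chow ends at 454 and HFrD starts at 473.

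Part of each value was shared by all sequences. The median log2 fold change of all 170 sequences was 0.012 with TMM factors, 0.13 with library totals and 0.12 with upper quartile factors. Relative to that median miR-26a-5p was at 0.022, 0.024 and 0.00091, and miR-26b-5p at −0.19, −0.19 and −0.20. In the same order miR-101a-3p was at 0.17, 0.16 and 0.18, and miR-101b-3p at 0.12, 0.12 and 0.13. Subtracting the median removes most of a change of scaling by construction, so the likeness of these values is no sign of stability. A correction for GC content does move sequences against each other. With limma on log2 CPM miR-26b-5p was at −0.18 without it and at −0.0082 with it, where the median of all sequences was −0.0016. miR-101a-3p went from 0.16 to 0.33 under the same correction, and neither passed the threshold in either fit.

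**Figure D3:**
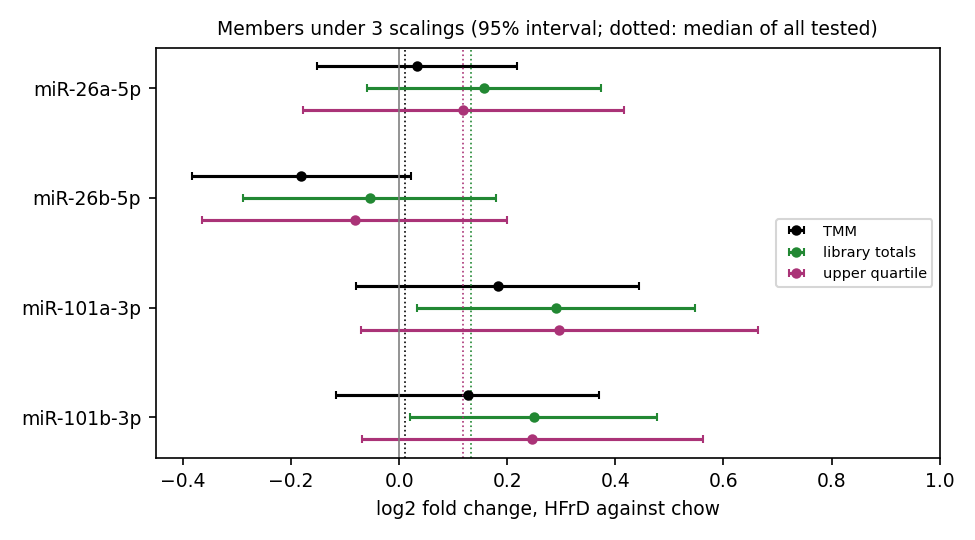
Log2 fold change of each member, HFrD against chow (x axis), with its 95% interval from edgeR under TMM factors, library totals and upper quartile factors; dotted lines give the median of all 170 sequences under each. The values of a member shift together with that median, from 0.034 to 0.16 for miR-26a-5p between TMM factors and library totals.

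The miR-26 family total followed miR-26a-5p, which gave 94.8% ± 0.717 of it in chow and 95.5% ± 0.155 in HFrD (SD, n = 4 each). Summed levels were 11109, 11038, 12120.4 and 9731 CPM in chow and 11859, 11099, 10593 and 11163 CPM in HFrD. The means were 10999.7 ± 980 and 11179 ± 520.5 CPM (SD, n = 4 each), and the groups overlapped (log2 ratio of means 0.023). That value was −0.031 without chow replicate 4 and −0.0063 without HFrD replicate 1. The sums over the members themselves are given as descriptions, with no test.

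The miR-101 family total lay close together in chow, at 1398, 1365, 1393 and 1337 CPM. In HFrD it ranged widely, with 1196, 1629.7, 1808 and 1524 CPM. With TMM factors HFrD replicate 1 lay below every chow library and replicates 2 to 4 above them. Over library totals replicates 2 to 4 were again above chow. There HFrD replicate 1, at 1348 CPM, lay within the chow range of 1196 to 1426 CPM. The means were 1373 ± 28.2 and 1539.5 ± 257 CPM (SD, n = 4 each), a log2 ratio of 0.16 that was 0.27 without HFrD replicate 1 and 0.078 without HFrD replicate 3. The closeness in chow was one of the sum: its coefficient of variation was 2.05%, against 8.76% for miR-101a-3p and 12.2% for miR-101b-3p. Chow replicate 1 was the highest in miR-101a-3p and the lowest in miR-101b-3p, and chow replicate 4 the reverse. The spread of the total also moved with the scaling. Its coefficient of variation was 2.05% in chow and 16.7% in HFrD with TMM factors, against 7.20% and 11.3% over library totals. The difference in spread between the diets was not tested. Counting alone would give a coefficient of variation of 2.98% for miR-101a-3p and 4.30% for miR-101b-3p in chow. Such values cover counting error only, since the reads carry no stated molecular identifiers and need not be independent. No such value was computed for the sum. Its 2.05% in chow was below those of both paralogs, so its closeness there is not read as more than chance. For miR-26b-5p in HFrD the spread over libraries, 3.78% with TMM factors, was about that of counting, 3.76%. Over library totals that spread was 8.91%.

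Ratios within a library do not depend on the scaling, and 3 were computed. A correction for GC content could still move them, and none was applied to them. All 3 ratios were compared by exact two-sided permutation tests over the 70 assignments of the 8 samples, with p adjusted over the 3. The smallest p that 4 against 4 samples can give is 0.0286. After adjustment over the 3, a ratio at that value passes 0.05 only if another ratio is that low too. A separation in a single ratio therefore could not have passed. miR-26a-5p exceeded miR-26b-5p 20.1-, 16.2-, 21.3- and 16.04-fold in chow and 22.3-, 20.7-, 21.3- and 20.5-fold in HFrD. HFrD libraries lay close together, and chow replicates 1, 2 and 4 lay below all of them, while chow replicate 3 fell within their range. The log2 ratio was 4.19 ± 0.21 in chow and 4.41 ± 0.052 in HFrD (SD, n = 4 each), a difference of 0.21 that did not pass (exact permutation p = 0.143, adjusted p = 0.429).

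miR-101a-3p exceeded miR-101b-3p 2.71-, 1.93-, 2.13- and 1.63-fold in chow and 1.85-, 2.47-, 2.20- and 2.03-fold in HFrD. The widest gap between libraries lay within chow, from replicate 4 to replicate 1. The log2 ratio was 1.05 ± 0.31 in chow and 1.09 ± 0.18 in HFrD (SD, n = 4 each; exact permutation p = 0.857, adjusted p = 0.857). The miR-26 total exceeded the miR-101 total 7.95-, 8.09-, 8.70- and 7.28-fold in chow and 9.91-, 6.81-, 5.86- and 7.33-fold in HFrD. HFrD held both the highest and the lowest library. This log2 ratio of sums over the members was 2.997 ± 0.11 in chow and 2.88 ± 0.32 in HFrD (SD, n = 4 each). Its difference between the diets did not pass (exact permutation p = 0.514, adjusted p = 0.771). The difference of −0.12 was −0.27 without HFrD replicate 1 and −0.014 without HFrD replicate 3.

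**Figure D4:**
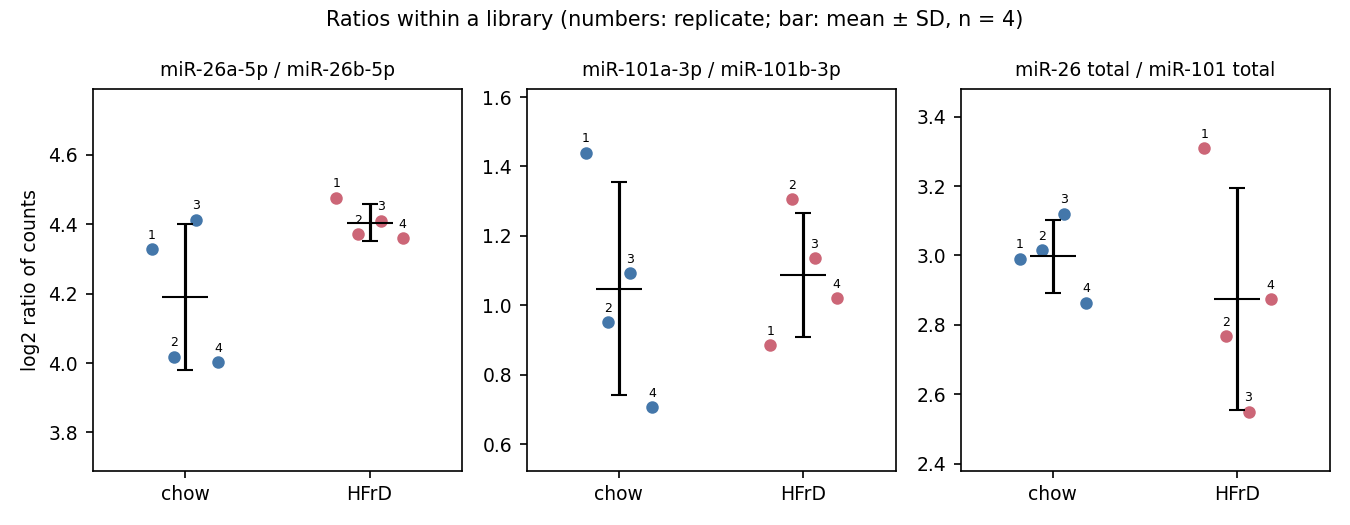
Log2 ratio of counts within each library (y axis, not starting at 0; points: libraries with the replicate number; bars: mean ± SD, n = 4). The diets overlap in all 3 panels; for miR-26a-5p over miR-26b-5p the HFrD mean is 4.41 and the chow mean 4.19.

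The opposite strands of the hairpins were close to the lower limit of the table, which lists no value under 2. miR-26a-2-3p, which pairs with miR-26a-5p in 1 of its precursors, was listed in 6 of 8 libraries with at most 12 counts, and its 42 counts stand beside 110999 of miR-26a-5p. miR-101a-5p was listed in 2 libraries and miR-26b-3p in 1, with 2 counts each time. miR-101c was listed in all 8 libraries, with 2, 4, 5 and 2 counts in chow and 4, 6, 11 and 6 in HFrD, in total 40 beside 10391 of miR-101a-3p. None of these 4 entries passed the filter on low counts. miR-144-3p, an erythroid miRNA whose seed differs from that of miR-101a-3p by C8U, averaged 12.8 ± 3.38 CPM on chow and 14.5 ± 2.62 CPM on HFrD (SD, n = 4 each). Its edgeR log2 fold change of 0.17 did not pass (SE 0.26, adjusted p = 0.694).

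Other miRNAs reported to target Ezh2, mostly in human cells, gave a similar picture. Of 17 on the list, 14 were in the table and 13 were tested, and 0 of the 13 passed in either direction, beside 5.88% of all sequences. At an unadjusted p under 0.05 edgeR had let-7d-5p at 0.39 (SE 0.13, adjusted p = 0.0677), miR-25-3p at 0.29 (SE 0.11, adjusted p = 0.0953) and let-7i-5p at 0.21 (SE 0.082, adjusted p = 0.129), 3 of the 13 (23.1%) beside 40 of all 170 sequences (23.5%). The median log2 fold change of the 13 was 0.051, from −0.14 to 0.39, and that of all sequences was 0.012. The most abundant were let-7g-5p, with 41562 CPM in chow and 38933 CPM in HFrD (log2 fold change −0.094), and let-7f-5p, with 16340.1 and 14944 CPM (log2 fold change −0.13).

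Across the 8 libraries the paralogs did not follow each other closely. Pearson's r of log2 CPM was −0.21 for miR-26a-5p with miR-26b-5p and 0.38 for miR-101a-3p with miR-101b-3p, given as descriptions over libraries that share their scaling factors. Of 166 other sequences, those most like miR-26a-5p were miR-30a-3p (r = 0.96), miR-99b-5p (0.84) and let-7d-5p (0.82). For miR-26b-5p they were let-7f-5p (0.89), let-7c-5p (0.82) and miR-7a-5p (0.81). miR-185-5p (0.88), miR-106b-5p (0.84) and miR-125b-5p (0.83) came closest to miR-101a-3p. Those closest to miR-101b-3p were miR-1191a (0.88), miR-192-5p (0.84) and miR-744-5p (0.83).

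These are values of whole liver, in which fewer cells of a type and less miRNA per cell cannot be told apart, and the files do not say which cells held the members. The hepatocyte list (5 of 5 markers in the table) summed to between 615774 and 704210 CPM in chow and between 581254 and 627727 CPM in HFrD. Both endothelial markers were present, with 7437 to 10079.5 CPM over the chow libraries and 5890.2 to 6863 CPM over the HFrD libraries. With TMM factors this sum was thus lower in HFrD with no overlap. With the same factors 24 of the 170 sequences (14.1%) separated, among them miR-26b-5p, which overlapped over library totals. The endothelial sum was not computed over library totals. edgeR called 1 of the 2 endothelial and 1 of the 5 hepatocyte markers, beside 10 of all 170 sequences (5.88%), and no tested marker of the other lists. Summed levels of the stellate and fibroblast list (5 of 5) were 4472 to 5016 CPM in chow and 3829.9 to 5240.2 CPM in HFrD. The biliary (4 of 5), muscle (2 of 3) and erythroid (3 of 3) lists overlapped between the diets as well, with up to 724, 736 and 137 CPM. Myeloid (3 of 3), lymphoid (2 of 2) and pancreas (1 of 3) lists stayed at or under 22.2, 15.9 and 4.28 CPM. The part of these cells in the members' values was not tested.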

How the data were processed

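The authors deposited raw tag counts per mature miRNA, per the file headers, and the same counts divided by a number per library and rounded; these deposited normalized values are called a score here. Tools include cutadapt 1.9.2 and Novoalign 3.02.12 on mm10, as the submitters' processing notes list them. The extraction protocol describes a stranded total RNA library. The sources used here give neither the step selecting small RNA nor the rule for reads matching several miRNAs. Reads of near-identical paralogs may be split or shared. The table's 484 entries were merged by mature sequence into 443, and blank cells (35.3%) were read as 0. edgeR 4.0.16 (R 4.3.3) tested diet on all 8 samples with filterByExpr at a minimum count of 10, TMM factors and Benjamini-Hochberg adjustment at 0.05. Replicates differed by more than sampling noise (chi-square over its degrees of freedom, 6.60 to 248). Family totals were sums over the members. Precursor positions came from RefSeq, and host genes and 3′ UTRs from GENCODE M21. Alternatives used DESeq2 1.42.0, limma 3.58.1, other factors and filters, GC content and single libraries left out. The members, marker lists and list of other Ezh2-targeting miRNAs were chosen with earlier results of these data known. Named were the members, their other arms, miR-101c and miR-144-3p, the members of the Ezh2 list that passed and otherwise its 2 most abundant, and the 3 most alike miRNAs per member; let-7d-5p, miR-25-3p and let-7i-5p were named after their values were seen.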

Additional observations from a re-analysis of the deposited data

How the results depend on the processing

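No member passed the threshold under any of the 19 alternatives. miR-101a-3p (0.085 to 0.33) and miR-101b-3p (0.044 to 0.25) stayed positive and miR-26b-5p (−0.22 to −0.0082) negative in log2 fold change, with lowest adjusted p of 0.0768, 0.171 and 0.229. The value of miR-26b-5p nearest 0, −0.0082, came after a correction for GC content. miR-26a-5p ran from −0.048 to 0.090 with 1 library left out, negative without chow replicate 4 alone. The miR-26 total, at 0.023 with TMM factors, was at 0.15 with library totals. The log2 ratio of miR-101a-3p to miR-101b-3p (0.039) ran from −0.074 to 0.17 with 1 library left out, at −0.074 without chow replicate 4 and −0.034 without HFrD replicate 2. The cause was not tested. Over all sequences, the 10 calls became 23 with library totals, 1 with upper quartile factors, 22 without a filter, 3 with limma on the authors' score, 1 with limma on log2 CPM, 0 after GC correction (33 with an unadjusted p under 0.05), 17 without the predicted sequences (added once the data had been seen), and 1 (without chow replicate 2) to 17 (without chow replicate 3) with 1 library left out, with 6 without HFrD replicate 4. Replicate numbers here are those of the sample titles. The columns of counts carry partly different numbers, so a pairing by title number has no stated basis. No pairing by replicate number was seen. Deviations of same-numbered samples correlated at 0.15, −0.10, 0.05 and 0.01, and 2 of 8 samples correlated best with their own number. So few samples cannot exclude a pairing. With the replicate number as a block edgeR called 15, and miR-26a-5p was at 0.037, miR-26b-5p at −0.18, miR-101a-3p at 0.17 and miR-101b-3p at 0.13, none past the threshold. None of the 3 ratios passed an exact sign-flip permutation over the 4 pairs, which cannot give a p below 0.125. Depth limits mainly the opposite strands and miR-101c, which were too rare to test.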
